A study of Mus musculus with 8 samples.

Results

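The 50 genes described here encode proteins of DNA repair and of the DNA damage response. They were listed by name, with earlier results of these data known. The platform annotation assigned 99 of the 45037 probe sets tested to exactly 1 of these genes, so that all 50 were measured, among 17097 genes in all. They were ordered by role into 12 genes of homologous recombination, 7 of the Fanconi anaemia pathway, 7 of checkpoint and damage signalling, 5 of end joining, 2 of mismatch repair, 7 of nucleotide excision repair, 8 of base excision repair, and 2 placed together here, Mgmt for direct reversal and Rev3l for translesion synthesis. A further 4 probe sets that the annotation assigns to a member together with another gene were left out.

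Expression was measured on 8 one-colour arrays of mouse interfollicular epidermis, the part of the skin epithelium that lies outside the hair follicles. In 4 arrays the RNA came from animals labelled G9a cKO, with a conditional knockout of the histone H3 lysine 9 methyltransferase G9a (gene Ehmt2), and in 4 from animals labelled G9a WT. Both groups had received the carcinogen DMBA (0.25 mg/ml) and the tumour promoter TPA (0.02 mg/ml) in acetone. Of each solution 200 µl were put on the shaved back once a week over 6 weeks, starting when the mice were 8 weeks old. All animals are labelled as 15 weeks old, and the skin is labelled pre-neoplastic, so that neither group is untreated skin. The allele, the Cre driver and the strain were not given in the labels, and neither is it stated there that the replicates are different mice. The p-values below therefore measure the spread between these samples, which may in part be technical.

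DNA repair is divided by the kind of lesion. Breaks through both strands are joined directly by end joining or copied back from the sister chromatid by homologous recombination, which the Fanconi anaemia proteins also use at crosslinks and stalled forks, and the kinases ATM and ATR signal such damage to the cell cycle. Nucleotide excision repair cuts out bulky adducts of the kind that activated DMBA leaves on purines, base excision repair removes small base lesions, mismatch repair corrects replication errors, and the MGMT protein takes an alkyl group from guanine onto itself. Many genes of homologous recombination and of the Fanconi pathway are transcribed mainly in cycling cells, with the genes of DNA replication.

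The preparation read as keratinocytes: Krt5, Krt14, Krt1 and Krt10 stood at 12.2 to 12.9 on the log2 scale in both groups, above at least 99.7% of probe sets. The lowest of the 15 listed keratinocyte markers were Lor, at 7.39 in cKO and 7.43 in WT, and Ivl, at 7.91 and 7.81. Over 6 lists of other cell types with 36 measured genes, none passed the test, though their levels varied. Ptprc of leukocytes stood at 3.46 in cKO and 3.56 in WT and Pdgfra of fibroblasts at 3.96 and 4.05, while Dcn of fibroblasts stood at 5.93 and 5.86 and Pmel of melanocytes at 6.48 and 6.51. In the list for hair follicle and sebaceous gland, Krt15, which basal epidermis also expresses, stood at 11.4 and 11.3 and Mgst1 at 7.85 and 7.83. The summed log2 level of the 9 leukocyte markers ran from 42.9 to 43.1 in cKO and from 42.7 to 43.5 in WT, and that of the 6 fibroblast markers from 28.0 to 28.8 and from 28.1 to 28.7. For the 5 melanocyte markers it ran from 26.5 to 27.7 in cKO and from 26.4 to 26.8 in WT, with Mlana at 0.25 (limma adjusted p = 0.305), and for the 7 hair follicle and sebaceous markers from 44.0 to 44.8 and from 43.9 to 44.4. The part of these cells in the results was not tested. Ehmt2 was 2.88 lower (log2, SE 0.19, limma adjusted p = 0.000244) in cKO at probe set 1460692_PM_at and differed by 0.01 at 1426888_PM_at (adjusted p = 0.996). In a principal component analysis of all genes, WT 4 stood at 7.37 on the first component, inside the cKO range of -0.89 to 12.7 and away from the other WT arrays (-14.7 to -10.0), and cKO 2 stood lowest among the cKO arrays. Values without these arrays are given below for several members that moved with them. On this component WT 4 and cKO 2 are the arrays of their groups that lie nearest the other group. Leaving both out therefore tends to widen group differences, so values without them show dependence on these arrays and are not support for a difference.

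For the gene that passed the test, the promoter windows of its annotated start sites are shown, since they are the sequences next to the finding. RefSeq gives Mgmt 2 start sites on chromosome 7 (GRCm38.p6, plus strand), and each window holds 250 bases before and 50 after the start, with CG dinucleotides in capitals. The first, at chr7:136894336-136894635, holds 20 CG, close to the median of 21.5 over the 44 windows of the members and a number that 26.5% of all 32851 RefSeq windows of this length reach or pass, and the second, at chr7:136912848-136913147, holds 3, which 76.7% reach or pass.
Mgmt first start: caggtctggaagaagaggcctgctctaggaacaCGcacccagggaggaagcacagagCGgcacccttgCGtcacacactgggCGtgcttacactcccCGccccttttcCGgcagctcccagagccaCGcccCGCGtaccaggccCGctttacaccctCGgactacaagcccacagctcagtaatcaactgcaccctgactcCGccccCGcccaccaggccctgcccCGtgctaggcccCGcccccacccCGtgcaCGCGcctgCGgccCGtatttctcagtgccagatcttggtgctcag
Mgmt second start: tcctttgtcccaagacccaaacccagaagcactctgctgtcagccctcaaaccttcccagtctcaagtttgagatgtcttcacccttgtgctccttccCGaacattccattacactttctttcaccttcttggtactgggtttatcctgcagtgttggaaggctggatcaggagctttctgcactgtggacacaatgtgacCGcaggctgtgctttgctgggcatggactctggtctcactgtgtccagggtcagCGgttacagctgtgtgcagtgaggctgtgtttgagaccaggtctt
The GC box letters GGGCGG, searched on both strands, occur in the first window and not in the second. They occur in 35.7% of all windows and in 31 of the 44 windows (70.5%) of the 39 members that have one in the table. Which start site was used in these samples cannot be read from the arrays, and DNA methylation was not measured.

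Mgmt was the member that rose. It read 8.33, 8.44, 8.38 and 8.37 in cKO 1 to 4 and 7.87, 8.05, 7.89 and 7.96 in WT 1 to 4 (log2 level, probe set 1421309_PM_at). All 4 knockout arrays lay above all 4 WT arrays, and the gap between the groups was wider than the range within either. The group means were 8.38 ± 0.04 in cKO and 7.94 ± 0.08 in WT (SD, n = 4 each), a log2 fold change of 0.44 (SE 0.05, 95% interval 0.32 to 0.55) or 1.35-fold, and the limma adjusted p over all probe sets was 0.00635. The exact permutation test over the 70 arrangements of 4 against 4 gave p = 0.0286, the smallest this design allows. The call held whichever array was left out (log2 fold change 0.41 to 0.47, limma adjusted p 0.00681 to 0.0364). It also held without both cKO 2 and WT 4 (0.42, limma adjusted p = 0.0237), though that choice of arrays tends to widen differences. Mgmt has 1 probe set on this array, so no second probe set bears on the rise.

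No other member passed. Of the 99 probe sets 1 was higher, 0 were lower and 98 did not pass (Benjamini-Hochberg adjusted p from limma, threshold 0.05). This is 1.01% called, where 0.466% of all probe sets were called, 0.393% as higher and 0.0733% as lower. Per gene, with the probe set of the highest mean standing for each, 1 of 50 members (2%) was called, against 0.977% of all genes, and a share this close to the background is not a result about the members as a whole. At an unadjusted p under 0.05, 4 probe sets were higher (4.04%, against 5.06% of all probe sets) and 8 were lower (8.08%, against 2.92%). Fold changes were small: 35 of 50 members stood within 0.10 of zero on the log2 scale, and the median size of the change was 0.05 in the members and 0.05 in all genes. For 47 of the 50 members the 95% interval lay wholly between -0.5 and 0.5, and the other 3 were Mgmt, Chek1 and Brca2. These intervals carry the spread between these samples, which may in part be technical, so they do not bound a difference between animals. Some members also read low, such as Lig4 at 4.03 in cKO and 4.13 in WT. Such levels were not shown to lie above background.

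**Figure D1:**
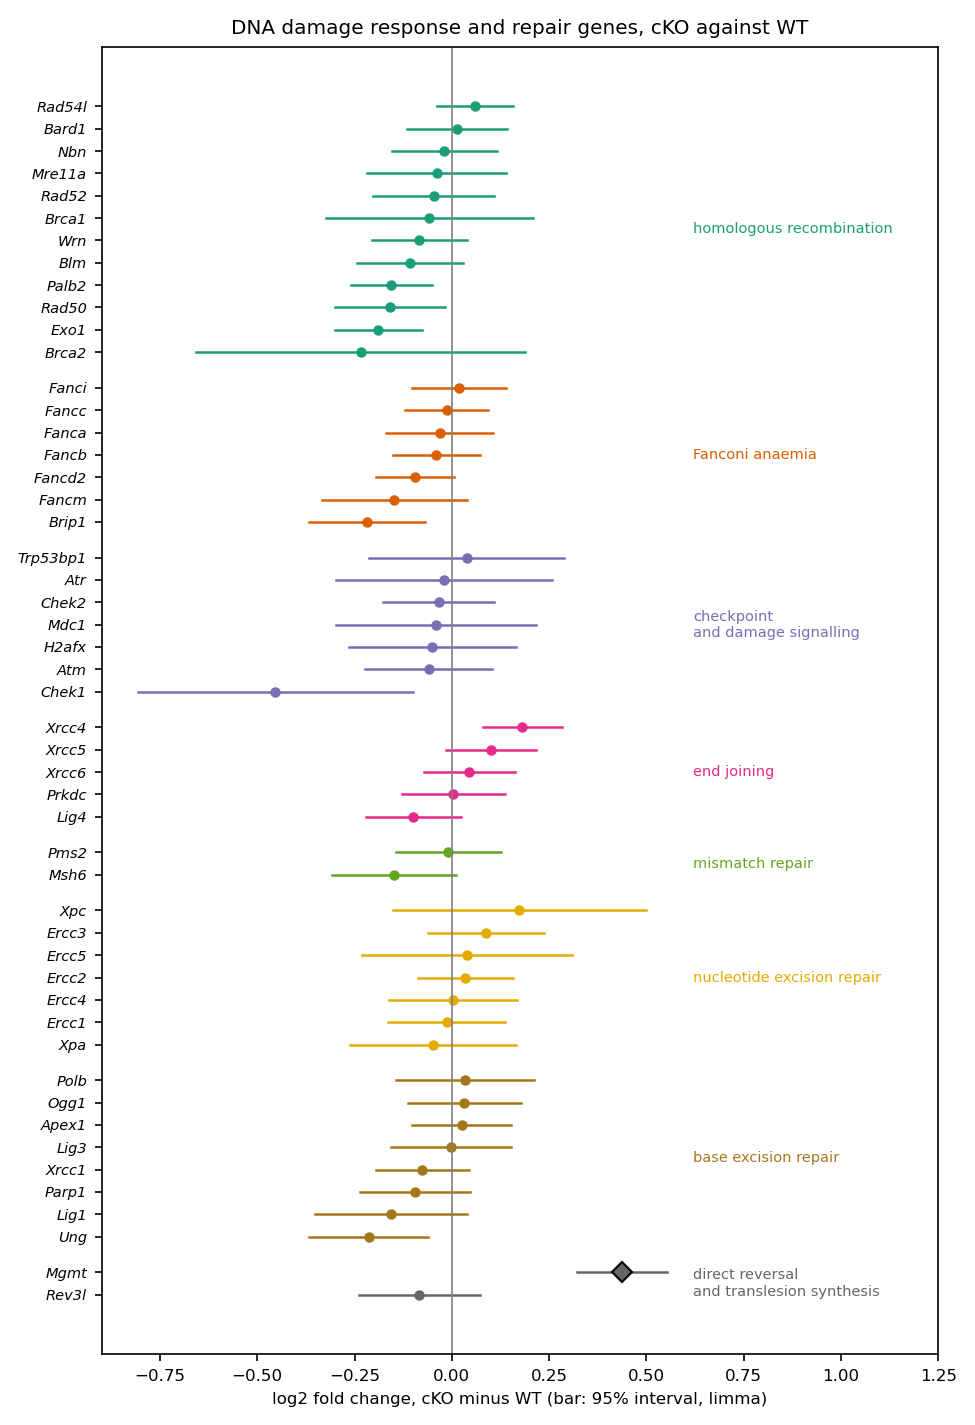
Log2 fold change (cKO minus WT) of the 50 members at the probe set that stands for each gene, ordered by role, with the 95% interval from limma (n = 4 arrays per group). The diamond marks Mgmt, at 0.44, the member past the threshold; Chek1, at -0.45, has the widest gap to zero on the other side and an interval from -0.81 to -0.10.

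The direction of the small differences leaned to lower values in the knockout: 33 of 50 members (66.0%) stood below zero, where 45.2% of all genes did, and the median was -0.04 against 0.01. This held for 10 of 12 genes of homologous recombination, 6 of 7 Fanconi genes and 6 of 7 checkpoint genes, while 4 of 5 end joining genes and 5 of 7 nucleotide excision repair genes stood above zero. Over all 99 member probe sets the lean was weaker, with 58 (58.6%) below zero and a median of -0.02, against 0.005 over all probe sets. These counts have no test of their own, and members that vary together across arrays are not independent. Groups that did not overlap were seen at 8 of 99 probe sets (8.08%), against 4.89% of all probe sets. The knockout arrays were the higher ones at 4 of them (4.04%, against 3.17% of all probe sets), those of Mgmt, both sets of Xrcc4 and 1 of the 4 of Ercc1. They were the lower ones at the other 4 (4.04%, against 1.72%), 1 set each of Palb2, Exo1, Fancd2 and Ung. In these bulk samples, fewer cells that express a gene and less RNA of it per cell cannot be told apart.

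Among genes of homologous recombination, none of 12 passed and the median log2 fold change was -0.07 (range -0.23 to 0.06). Brca2, which loads the recombinase onto resected DNA, read 6.24, 6.43, 5.82 and 5.75 in cKO 1 to 4 and 6.55, 6.34, 6.43 and 5.84 in WT 1 to 4 (log2 level). Both groups thus held low arrays, cKO 3, cKO 4 and WT 4, and the difference of -0.23 (SE 0.19, limma adjusted p = 0.888) was smaller than the spread of either group. Without cKO 2 and WT 4 it was -0.51, which did not pass (adjusted p = 0.109).

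Exo1, the exonuclease that resects break ends and also serves mismatch repair, read 4.91, 4.93, 4.97 and 4.92 in the 4 cKO arrays and 5.21, 5.06, 5.05 and 5.17 in the 4 WT arrays (log2 level). The groups did not overlap, but the levels are low and the log2 difference of -0.19 (SE 0.05) did not pass (limma adjusted p = 0.231). Its other probe sets stood at -0.21 and -0.09, so that all 3 pointed the same way. Palb2, the bridge between BRCA1 and BRCA2, read 5.18, 5.29, 5.31 and 5.33 in cKO and 5.42, 5.45, 5.46 and 5.40 in WT, also without overlap, and its difference of -0.16 (SE 0.05) did not pass (limma adjusted p = 0.328). Rad50, a subunit of the complex with MRE11 and NBN that senses broken ends, stood at -0.16 (SE 0.06, adjusted p = 0.542), with its lowest array in cKO 1, at 7.17, and WT arrays from 7.38 to 7.56. Its second probe set stood at 0.02. Partners of these proteins differed less: Mre11a stood at -0.04 and Nbn at -0.02. The helicase genes Blm and Wrn stood at -0.11 and -0.08, and Bard1, the partner of BRCA1, at 0.01.

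Brca1 shows how far a value can depend on the probe set. At 1424630_PM_a_at, which has its highest mean, the log2 fold change was -0.06, while 1424629_PM_at gave -0.21 (limma adjusted p = 0.591), 1451417_PM_at -0.08 and 1427698_PM_at 0.09. At 1424629_PM_at the cKO arrays ran from 6.10 to 6.45 and the WT arrays from 6.25 to 6.56, so the groups overlapped there too. Of the 27 members with more than 1 probe set, all sets pointed to higher values in cKO for 7 genes and to lower values for 8, and the sets of the remaining 12 differed in sign. No gene had probe sets more than 0.5 apart.

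**Figure D2:**
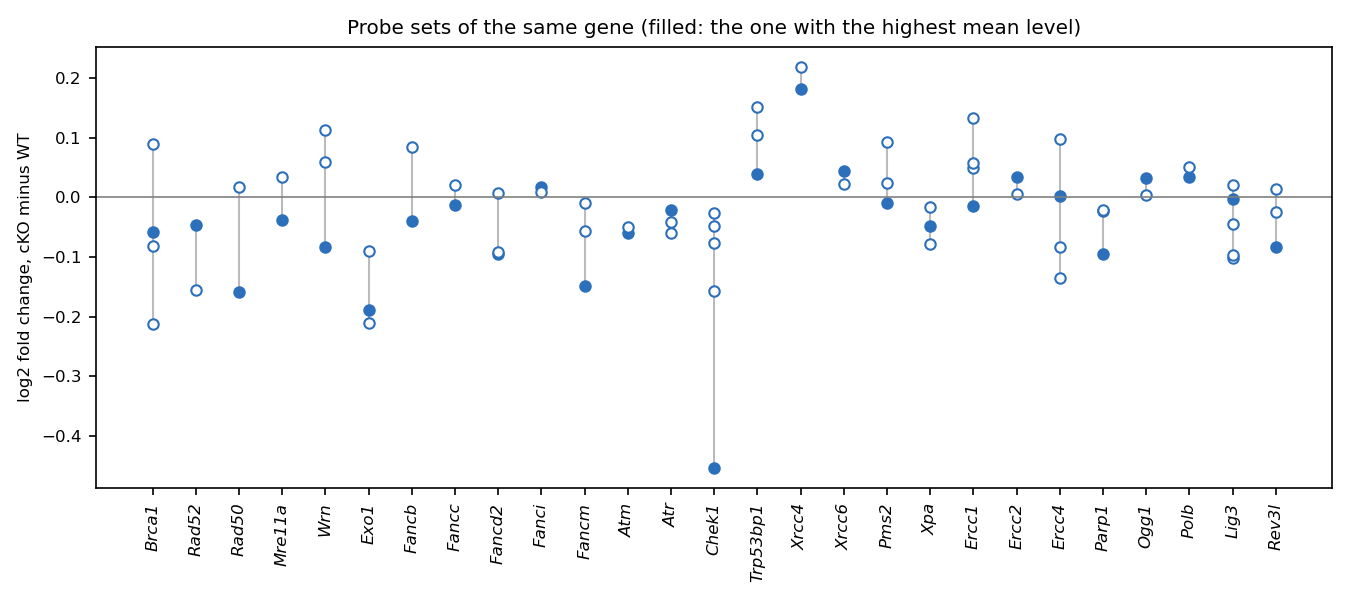
Log2 fold change (cKO minus WT) of each probe set of the 27 members that have more than 1, joined by a line per gene, the filled point being the set with the highest mean level over the 8 arrays. Chek1 spans the widest range, from -0.45 to -0.03, while both sets of Xrcc4 lie close together at 0.18 and 0.22.

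None of the 7 Fanconi genes passed, with a median log2 fold change of -0.04. Brip1, a helicase that works with BRCA1 at crosslinks, read 5.14, 5.03, 4.99 and 5.12 in cKO and 5.41, 5.33, 5.29 and 5.13 in WT (log2 level). WT 4 alone lay within the cKO range, and the difference of -0.22 (SE 0.07) did not pass (limma adjusted p = 0.342). The limma adjusted p of Brip1 was 0.0465 with array weights and 0.0897 without WT 4. These weights were estimated from the same fit and lower the part of arrays that stray from their group, so they are no separate measure of quality. Fancm, the translocase that recruits the pathway to forks, stood at -0.15 (SE 0.08, adjusted p = 0.752) and Fancd2, whose ubiquitinated product marks the crosslink, at -0.09 (SE 0.04, adjusted p = 0.665) with groups that did not overlap. Without cKO 2 and WT 4 they stood at -0.18 and -0.08, and neither passed (limma adjusted p = 0.465 and 0.560). Its partner Fanci stood at 0.02 with an interval from -0.10 to 0.14, and the core complex genes Fanca, Fancb and Fancc at -0.03, -0.04 and -0.01.

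Chek1 had the most negative difference of all 50 members. The kinase it encodes stops the cell cycle when ATR reports stalled replication. It read 6.25, 6.03, 5.79 and 5.70 in cKO 1 to 4 and 6.45, 6.65, 6.49 and 5.99 in WT 1 to 4 (log2 level, probe set 1449708_PM_s_at). WT 4 lay among the knockout arrays, while the other 3 WT arrays lay above all of them. The difference of -0.45 (SE 0.16, 95% interval -0.81 to -0.10) did not pass (limma adjusted p = 0.440; exact permutation p = 0.0857), and it was -0.59 without WT 4 (adjusted p = 0.0897) and -0.62 without cKO 2 and WT 4 (adjusted p = 0.0790). With weighted arrays it passed at -0.59 (adjusted p = 0.0447). The suffix _s_at marks probes that other transcripts may share, and the other 4 probe sets of Chek1 stood at -0.16 to -0.03, so the size of the difference is uncertain.

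The other checkpoint genes lay close to zero. Atm and Atr, the kinases at the head of the signal, stood at -0.06 (SE 0.07) and -0.02, with 95% intervals of -0.22 to 0.10 and -0.30 to 0.26. Chek2, the kinase that ATM activates, stood at -0.03. H2afx, the histone variant phosphorylated around breaks, read 8.27 to 8.63 in cKO and 8.37 to 8.70 in WT and stood at -0.05 (SE 0.10, limma adjusted p = 0.978). Mdc1, the scaffold that binds the phosphorylated histone, stood at -0.04 (SE 0.11), and Trp53bp1, which protects break ends from resection, at 0.04, with its other probe sets at 0.10 and 0.15. For Trp53bp1 the highest array at each of its 3 probe sets was WT 4, at 10.55, 7.86 and 6.27.

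End joining genes leaned the other way, with a median of 0.04, and none of 5 passed. Of 9 further end joining genes outside the members, 5 stood below zero, with a median of -0.0004, so these did not share the lean. Xrcc4, the scaffold of the ligase that closes the break, read 6.89, 6.87, 6.88 and 6.95 in cKO and 6.69, 6.67, 6.72 and 6.80 in WT (log2 level, probe set 1424601_PM_at). At 1424602_PM_s_at it read 5.12, 5.26, 5.16 and 5.07 against 4.97, 4.94, 4.85 and 4.99. The groups did not overlap at either probe set, yet the differences of 0.18 (SE 0.05, limma adjusted p = 0.197) and 0.22 (SE 0.05, adjusted p = 0.191) did not pass over all probe sets. With weighted arrays the second set passed (0.24, adjusted p = 0.0457) and the first did not (0.18, adjusted p = 0.0511). The second set also has the suffix _s_at, so other transcripts may share its probes, and its levels are low.

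The catalytic partner of XRCC4, Lig4, stood at -0.10 (SE 0.05, adjusted p = 0.743) and reads low on this array, with all arrays between 3.91 and 4.18. Xrcc5 and Xrcc6, the Ku subunits that bind break ends, stood at 0.10 (SE 0.05, adjusted p = 0.704) and 0.04 (SE 0.05), and Prkdc, the kinase that Ku recruits, at 0.00 with an interval from -0.13 to 0.14. Without cKO 2 and WT 4, Xrcc6 stood at 0.11 (limma adjusted p = 0.357).

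Mismatch repair was represented by 2 genes, neither of which passed. Msh6, a subunit of the mismatch sensor, read 8.81, 8.71, 8.57 and 8.50 in cKO and 8.84, 8.71, 8.85 and 8.79 in WT (log2 level). cKO 3 and cKO 4 were below the WT range, cKO 2 stood level with the lowest WT array, and the difference of -0.15 (SE 0.07) did not pass (limma adjusted p = 0.666). Pms2, of the endonuclease that acts after it, stood at -0.01, with an interval from -0.14 to 0.13.

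Nucleotide excision repair genes had a median of 0.04 and none of 7 passed. Leaving out single arrays, the median ran from -0.00028 without cKO 3 to 0.052. Xpc, the damage sensor of this pathway, moved with WT 4, as Brca2 and Chek1 did. It read 8.08, 7.69, 8.02 and 7.96 in cKO 1 to 4 and 7.64, 7.60, 7.60 and 8.21 in WT 1 to 4 (log2 level). The highest of all 8 arrays was thus a WT array, while the other 3 WT arrays lay below all of the knockout arrays. With all arrays the difference was 0.17 (SE 0.14, limma adjusted p = 0.896). Without WT 4 it was 0.32 (adjusted p = 0.182), and without both WT 4 and cKO 2 it was 0.41 and passed (adjusted p = 0.0179). With 3 arrays left in each group, and the 2 that lie nearest the other group left out, this value is not support for a difference. It is given as dependent on those arrays.

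Of the genes that act after the sensor, Xpa stood at -0.05 (SE 0.09), Ercc3, a helicase of TFIIH, at 0.09 (SE 0.07) and Ercc5, the nuclease that cuts on the 3′ side, at 0.04 (SE 0.12). The second TFIIH helicase gene, Ercc2, stood at 0.04. Ercc1 and Ercc4, the subunits of the other nuclease, stood at -0.01 and 0.00, though 1 of the 4 probe sets of Ercc1, 1441838_PM_at, read 6.80 to 6.96 in cKO and 6.64 to 6.79 in WT (0.13, limma adjusted p = 0.587). The lowest cKO array and the highest WT array were almost level at that set, though the groups did not overlap, and the exact permutation test gave p = 0.0286.

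In base excision repair none of 8 passed and the median was -0.04. Ung, the glycosylase that removes uracil from DNA, read 8.57, 8.59, 8.38 and 8.38 in cKO and 8.68, 8.80, 8.69 and 8.60 in WT (log2 level). All WT arrays were higher, though WT 4 by little, and the difference of -0.21 (SE 0.07, 95% interval -0.37 to -0.06) did not pass (limma adjusted p = 0.379). Without cKO 2 and WT 4 it was -0.28 (limma adjusted p = 0.114). Lig1, the ligase that also joins replication fragments, read 9.32, 9.19, 9.01 and 8.94 in cKO and 9.28, 9.34, 9.31 and 9.14 in WT, a difference of -0.16 (SE 0.09, adjusted p = 0.747) that was -0.22 without these arrays (adjusted p = 0.325). The break sensor gene Parp1 stood at -0.09 (SE 0.06, adjusted p = 0.825), or -0.019 without these arrays, and Xrcc1, the scaffold that PARP1 recruits, at -0.08 (SE 0.05). Glycosylase, endonuclease, polymerase and ligase genes of the short patch route were near zero: Ogg1 stood at 0.03, Apex1 at 0.02, Polb at 0.03 and Lig3 at 0.00. Rev3l, the catalytic subunit of the translesion polymerase zeta, stood at -0.08 (SE 0.07, adjusted p = 0.895). Across all role groups, the 22 members not singled out by the naming rule lay between -0.11 and 0.06, with limma adjusted p from 0.756 to 0.998.

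**Figure D3:**
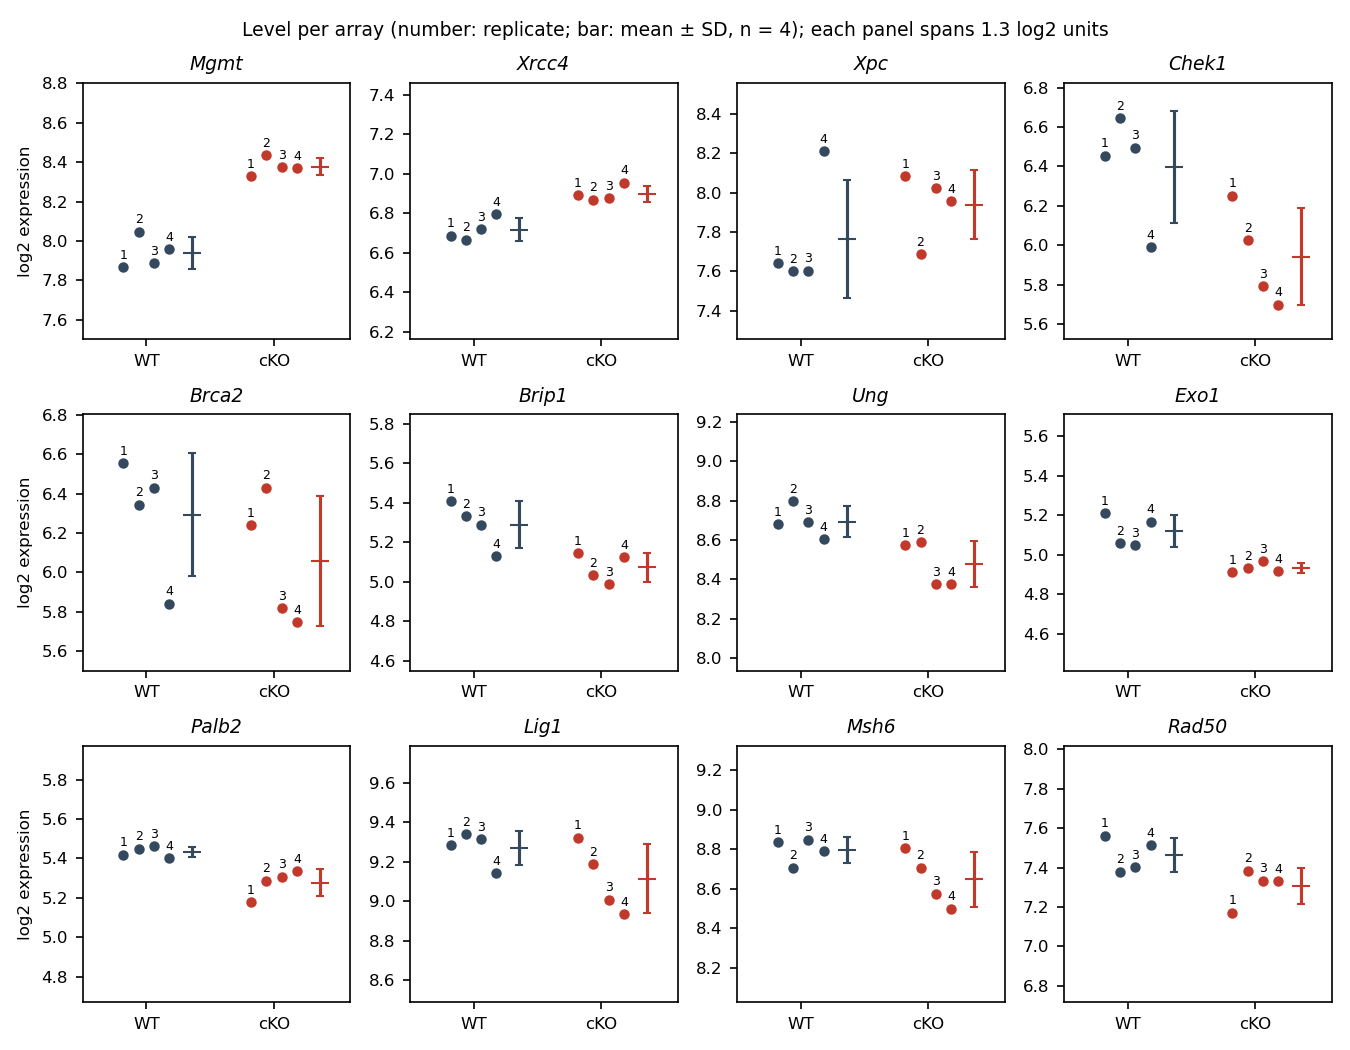
Log2 expression in each array for 12 members, with the replicate number above each point and mean ± SD (n = 4) beside it. Mgmt and Xrcc4 show separate groups with WT below cKO, Exo1, Palb2 and Ung separate groups with WT above cKO, and in Chek1, Brca2 and Xpc the WT 4 array lies apart from the other WT arrays.

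The largest axis of variation among the members set the knockout arrays apart from WT 1 to 3 but not from WT 4. In a principal component analysis of the 50 genes, the first component held 48.7% of the variance. On it cKO 3, cKO 4 and WT 4 stood at 0.75, 0.90 and 0.57, WT 1 to 3 at -0.77 to -0.64, and cKO 1 and cKO 2 between them at -0.05 and -0.10. Chek1 and Brca2 carried 24.6% and 20.2% of this component, and Xpc, which ran opposite to them, 8.58%. Mgmt carried 4.29%. The 3 arrays at the positive end, which are of both genotypes, were thus low in Chek1 and Brca2 and high in Xpc.

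**Figure D4:**
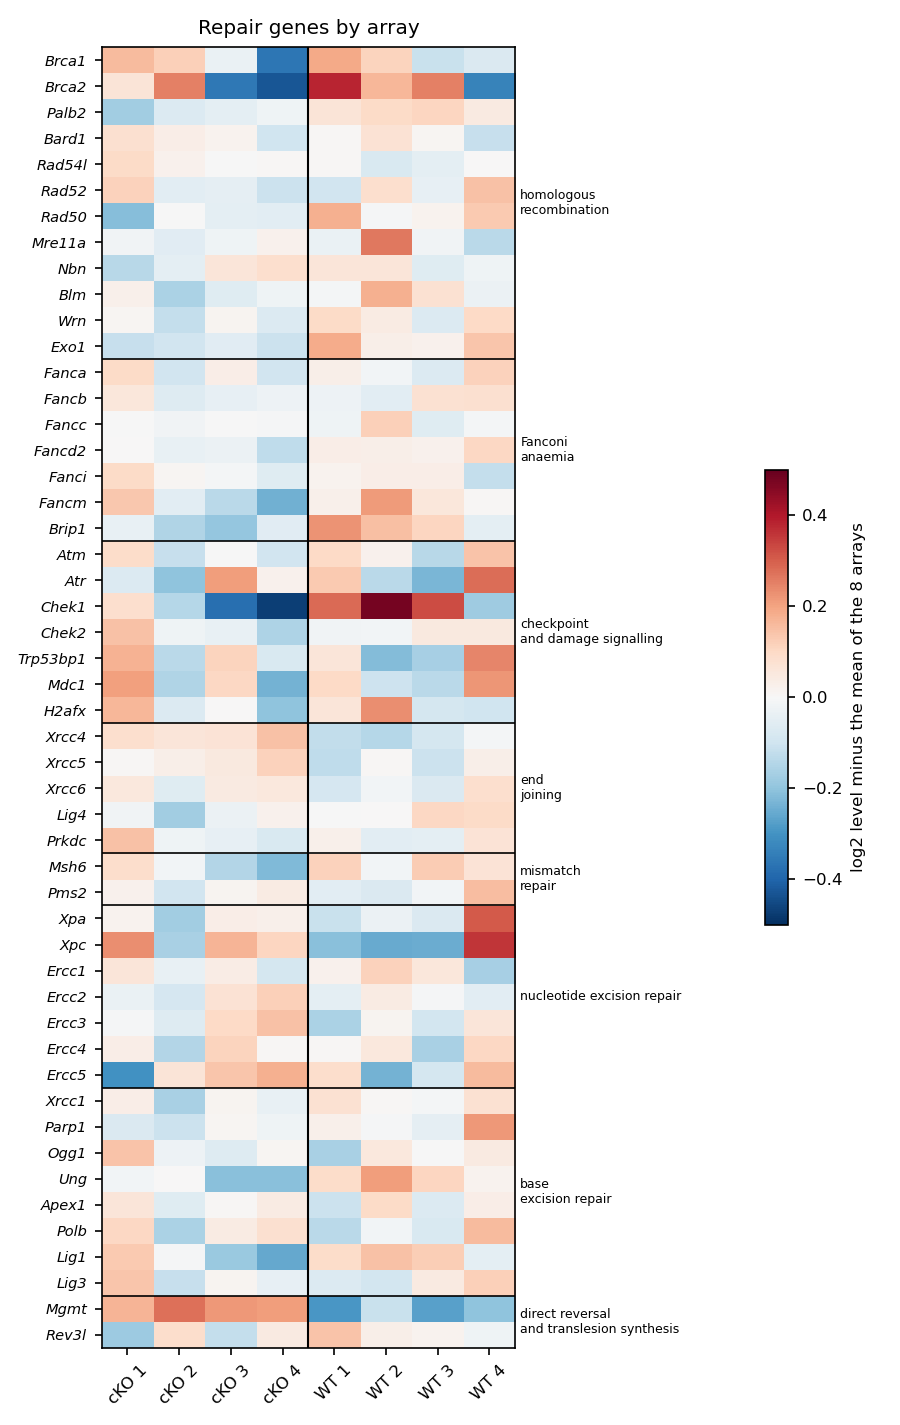
Log2 level of each of the 50 members in each array, minus the mean of the 8 arrays, ordered by role. Mgmt is above its mean in all 4 cKO arrays, while Chek1 and Brca2 are low in cKO 3, cKO 4 and WT 4 and Xpc is lowest in WT 1 to 3 and cKO 2.

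Genes of the cell cycle moved with the same arrays. The list of 34 genes of the G1/S phase and DNA replication, which shares no gene with the members, had array means of 0.07, 0.03, -0.15 and -0.22 in cKO 1 to 4 and 0.09, 0.17, 0.10 and -0.09 in WT 1 to 4 (log2, mean deviation from the 8-array mean). The 12 genes of homologous recombination stood at -0.01, -0.01, -0.05 and -0.10 in cKO and 0.09, 0.09, 0.01 and -0.01 in WT on the same scale. In both lists cKO 4 was lowest and WT 4 was the lowest WT array. WT 2 was highest among the G1/S genes, and WT 1 and WT 2 were level at the top for homologous recombination. For the 7 nucleotide excision repair genes the order was different, with WT 4 highest at 0.11, cKO 3 and cKO 4 at 0.09 and 0.07, and WT 3 lowest at -0.09. None of the 34 G1/S genes and none of the 32 G2/M genes passed over all genes (limma). At an unadjusted p under 0.05, 7 G1/S and 4 G2/M genes were lower and 0 of either list higher, where 3.22% of all genes were lower and 6.12% higher. The part of cell cycle stage in the lower members was not tested. Of the 24 measured p53 target genes, a list that holds the member Xpc, none passed and 4 stood below zero, where 45.2% of all genes did. At an unadjusted limma p under 0.05, 3 of them were higher and 0 lower, beside the same shares of all genes. The furthest, the receptor gene Eda2r, stood at 0.42 (SE 0.10, limma adjusted p = 0.0963).

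**Figure D5:**
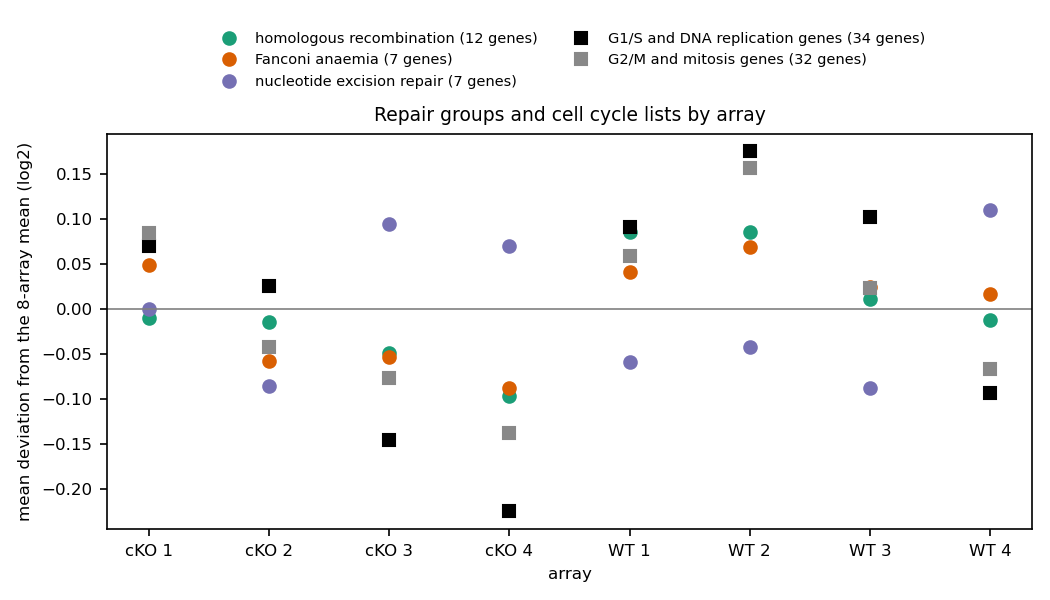
Mean deviation from the 8-array mean (log2) in each array, for 3 groups of repair genes (circles) and for the G1/S and G2/M lists (squares). Homologous recombination and the cell cycle lists are lowest in cKO 4 and at or near their highest in WT 2, and nucleotide excision repair is highest in WT 4.

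The letters TTTCCCGC, which E2F factors bind at many genes of the S phase, were searched on both strands of the promoter windows of the 39 members that have one. They were present in 6 of the 44 windows of these members (13.6%), each of a different gene, against 1.07% of all RefSeq windows. The windows of the members also hold more CG, of which these letters contain one, with a median of 21.5 against 7 over all windows, so the shares are of windows that differ in composition. The 30 bases around each match are given so that the sites can be compared, in the direction of the gene, with the match in capitals and GCGGGAAA being its reverse complement (GRCm38.p6).
Bard1, chr1:71103163-71103192, minus strand: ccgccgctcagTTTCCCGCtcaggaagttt
Chek2, chr5:110839820-110839849, plus strand: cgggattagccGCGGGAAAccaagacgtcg
Brca2, chr5:150522442-150522471, plus strand: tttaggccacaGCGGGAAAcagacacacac
Xrcc6, chr15:82016312-82016341, plus strand: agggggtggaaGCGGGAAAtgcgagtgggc
Mdc1, chr17:35841471-35841500, plus strand: tcttcagcctgTTTCCCGCcggtagccgca
Msh6, chr17:87975054-87975083, plus strand: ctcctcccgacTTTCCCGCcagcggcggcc
The log2 fold changes of these 6 genes ran from -0.23 for Brca2 and -0.15 for Msh6 to 0.04 for Xrcc6, with a median of -0.04, and the members without the letters had a median of -0.03. Other E2F letters, TTTGGCGC, were found in 0 of the 44 windows and in 0.514% of all windows. The CCAAT letters of NF-Y were found in 25 of the 44 windows (56.8%) and in 37.4% of all windows, and TTTGAA, the letters of the cell cycle homology region, in 2 (4.55%) and in 17.9% of all windows. These are matches of letters in 1 window per start site, and binding was not measured.

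The rest of the repair machinery was examined through 5 further lists with 99 measured genes. A gene of these lists that the processing notes set aside passed the test and is not among the 99, so the lists as a whole were not without a call. The 99 others did not pass (limma, over all genes; 0.977% of all genes were called). At an unadjusted p under 0.05, 2 were higher (against 6.12% of all genes) and 6 were lower (against 3.22%), and the median was -0.02. The probe set matched by name to Fan1 stood at -0.48 (SE 0.28, limma adjusted p = 0.708). Its SD of 0.56 in cKO and 0.44 in WT was about as large as the difference. Whether this probe set measures the crosslink repair nuclease of that name was not checked, so the value is not assigned to that nuclease. It is counted among the 99. Timeless, which keeps the replication fork together, read 6.74 ± 0.16 in cKO and 7.07 ± 0.05 in WT (n = 4 each, log2 fold change -0.33, SE 0.08, limma adjusted p = 0.106). The end joining polymerase gene Poll stood at 0.19 (SE 0.05, adjusted p = 0.200), on the same side as Xrcc4, and Parp3 at -0.19 (SE 0.07, adjusted p = 0.421). The flap nuclease gene Fen1, of excision repair and replication, stood at -0.27 (SE 0.12), and Alkbh3, a demethylase that like MGMT reverses alkylation directly, at 0.17 (SE 0.22, adjusted p = 0.923). Alkbh3 read 6.25 to 6.70 in cKO and 5.98 to 6.21 in the WT arrays other than WT 4, which read 7.14. Its value thus depends on WT 4.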

How the data were processed

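The deposited values are log2 expression per probe set. The submitters' processing notes name RMA, without version or settings. The base of the logarithm was inferred from the values (3.06 to 13.0, array medians 5.72 to 5.80). RMA equalises the distributions of the arrays, which hides a shift common to all genes. Per the labels' protocols, 25 ng of TRIzol RNA were amplified in 17 cycles and 8 µg of cDNA biotinylated. Of 45141 rows, 104 control probe sets were left out. Of the 45037 tested, 28898 name 1 gene, 551 several and 15588 none; Entrez numbers of 28689 gave current symbols (RefSeq, GRCm38.p6). Each gene was represented by its probe set with the highest mean, which for genes with several sets favours one that rises in cKO.

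The contrast, cKO minus WT, was fitted in R 4.3.3 with limma 3.58.1 (lmFit, eBayes, two-sided, Benjamini-Hochberg, threshold 0.05) on all probe sets and on the gene table, whose adjusted p is quoted for genes outside the 50. Levels are means ± SD and fold changes carry limma's SE and 95% interval. Exact permutation tests were two-sided. The arrays give no read depth; their number, 4 per group, limits the precision, and no detection call was available. The procedure was tested on simulated data. Named in full are, per role group, the 4 members with the largest change at the standing probe set, and any called member or one whose probe sets differ by 0.5; other lists contribute up to 3 genes. Further members are named by value only, after their values were seen. Members and lists were chosen with earlier results of these data known. Of the further repair lists, 1 gene that the naming rule would include is not reported here, and the counts and medians given for those lists leave it out. Replicate numbers were not taken to pair the samples. The labels do not say whether they do, and the correlations given at the end cannot exclude it. Alternatives are given at the end. Promoter windows are from RefSeq. Plots were drawn with matplotlib 3.10.9.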

Additional observations from a re-analysis of the deposited data

Results flagged for a closer look

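In 56 groups of 4 arrays, those of the 28 members named in full, a single array lay far from the other 3 in 4 cases, by the 95% critical value of Dixon's ratio; chance gives about 1 in 20 groups. For Xpc, WT 4 read 8.21 where the other WT arrays read 7.60 to 7.64. For Fancd2, WT 4 read 5.79 against 5.71 to 5.72. For Xrcc6, cKO 2 read 6.73 against 6.83 to 6.84, and for Xpa, cKO 2 read 5.60 against 5.80 to 5.81. These are the arrays that also stand apart over all genes. The cause was not tested.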

How the results depend on the processing

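The rise of Mgmt passed under all 18 alternatives run on it (0.41 to 0.47, limma adjusted p 0.00145 to 0.0364). As Mgmt has 1 probe set, alternatives that average, choose or drop probe sets could not change its fold change. The range of 0.41 to 0.47 is that of leaving out single arrays. Of the 28 members named in full, 21 kept their sign in all alternatives; 470 of 494 values kept both sign and side of the threshold. With array weights 4 member probe sets were called, Mgmt, Xrcc4, Chek1 (-0.59) and Brip1 (-0.28), and without both cKO 2 and WT 4 there were 2, Mgmt and Xpc (0.41); 12 had an unadjusted p under 0.05. Signs turned without both arrays for Atm (0.0052), Mdc1 (0.070), Pms2 (0.071) and Xpa (0.097), with array weights for Mdc1 (0.039), Pms2 (0.023) and Xpa (0.036), and with the mean of all probe sets for Fancb (0.023) and Pms2 (0.036). Leaving out single arrays gave -0.033 to 0.15 for Ercc5, -0.11 to 0.018 for H2afx, -0.11 to 0.032 for Mdc1, -0.034 to 0.041 for Pms2 and -0.093 to 0.047 for Xpa. The median of base excision repair moved to 0.023 and that of end joining to 0.11 without both arrays, and that of Mgmt with Rev3l to 0.44 when only Mgmt remained after _x_at, _s_at and _a_at sets were dropped. Leaving out single arrays, the median of all members stayed between -0.06 and -0.01, and those of nucleotide excision repair (-0.00028 to 0.052), checkpoint genes (-0.10 to 0.0083) and base excision repair (-0.068 to 0.00031) spanned zero. Over all features 210 probe sets and 167 genes were called; 758 and 604 with array weights, 657 and 430 without both arrays, 343 and 280 at adjusted p under 0.10, 3596 and 1596 at unadjusted p under 0.05, 132 probe sets in the upper 50% by mean, and 104 to 356 and 81 to 249 without single arrays. The lowest counts were without WT 1 (104 probe sets) and cKO 3 (81 genes) and the highest without WT 4. Same-numbered arrays deviated from their group means with correlations of -0.59 to 0.31, and 3 of 8 arrays correlated best with their own number, so the numbers were not taken to pair them; with the replicate number as a block, 175 probe sets and 141 genes were called, 1 of them a member, Mgmt (adjusted p = 0.0217). The causes of these shifts were not tested, and levels near the low end of the scale were not shown to lie above background.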

Other observations

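The protein-coding neighbours of Mgmt on chromosome 7 were looked up in RefSeq gene order after its value was seen. Of the 5 genes on either side, 8 had 16 probe sets on the array, and none of these passed (limma adjusted p 0.443 or higher). Mki67, the proliferation marker that is the nearest on one side, stood at -0.18 (SE 0.06, adjusted p = 0.443), and Ebf3, the nearest on the other, at -0.07 to 0.01 over 3 probe sets with low levels. Ptpre, the second on the side of Mki67, stood at 0.21 at both of its probe sets (adjusted p = 0.757 and 0.832), and Glrx3 at 0.02 to 0.06.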
